A study of Mus musculus with 6 samples.

Results

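The cytosolic ribosome is built from a small 40S and a large 60S subunit, and each subunit joins ribosomal RNA to a set of proteins encoded by the Rps and Rpl genes. The cytosolic ribosomal protein genes were taken by symbol: Rpl or Rps followed by a number and, where present, an a, x or l, together with Rps3a1, Rplp0, Rplp1, Rplp2, Rpsa and the l1 forms, without pseudogene symbols and without the Rps6k kinases. This gave 84 of the 24341 genes in the table, of which 31 belong to the 40S subunit, 46 to the 60S subunit, and 7 are paralogues named after another member. The rule reads symbols and uses no measured value. Each mature ribosome holds most of these proteins once, and their mRNAs are known to share a start sequence, the terminal oligopyrimidine tract, through which the kinase mTOR and the binding protein LARP1 control their translation. Hepatocytes make the plasma proteins of the body and are rich in ribosomes.

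Poly(A) RNA was measured in livers of mice on the C57BL/6 background fed regular chow. The 3 livers labelled Prkciflox/floxAlbCre carried loxP-flanked alleles of Prkci and a Cre recombinase driven by the albumin promoter, which is active in hepatocytes and the precursors they share with bile duct cells, so blood, endothelial and stellate cells keep the gene. The 3 livers labelled Prkciflox/flox carried the same floxed alleles without Cre. They are called AlbCre and floxed livers here. Age is 30 weeks per the sample labels but 28 weeks per the series design. No label ties a library to an animal of its own, so the p-values here measure spread among libraries, part of which may be technical. Prkci encodes the atypical protein kinase C lambda/iota, and the series concerns its part in hepatocyte metabolism and liver cancer. Prkci stood at 5.70, 5.26 and 4.42 FPKM in AlbCre livers and at 5.57, 3.65 and 4.44 FPKM in floxed livers. The groups overlapped (limma log2 change 0.15, SE 0.17, adjusted p = 0.813). The value covers the whole gene and all liver cells, and which exons are deleted was not stated in the labels, so it does not check them. FPKM counts fragments per kilobase of transcript, scaled to the size of the library. The table gives no read counts, so depth is unknown and no counting interval is given. Its columns summed to 521020 to 541220 FPKM in AlbCre livers and to 520100 to 577650 FPKM in floxed livers. Of 15 hepatocyte markers, 14 were in the table and Alb itself was listed at 0 in every library, so an exact 0 is given only as listed at 0.

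Most ribosomal protein mRNAs were abundant, but their levels were far from equal. The median level was 165 FPKM over the 84 genes (each taken as its mean over the 6 libraries), against 8.57 FPKM over the 10963 genes tested. Among the 77 genes other than the paralogues, 59 stood at 100 FPKM or above, 13 lay from 20 to 100 FPKM and 5 lay under 20 FPKM. The median was 190 FPKM for 40S genes and 164 FPKM for 60S genes. The order was nearly the same in every library, with Spearman rho from 0.977 to 0.994 between pairs of libraries over the 84 genes.

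Rplp1, an acidic protein of the stalk that recruits elongation factors to the ribosome, was the most abundant. It stood at 919, 1026 and 989 FPKM in AlbCre livers and at 874, 1021 and 923 FPKM in floxed livers. It ranked 69 among all genes of the table and was the 1 ribosomal protein gene among the top 100. Rps14, which lines the platform of the small subunit, came next at 517, 581 and 514 FPKM in AlbCre livers and 472, 540 and 402 FPKM in floxed livers. The gap between Rplp1 and Rps14 was wider than the spread of either. Among the next 4, each differed from its neighbour by less than the SD of one or both groups. Rps15 averaged 504 ± 44.3 FPKM in AlbCre livers and 482 ± 63.0 FPKM in floxed livers, Rps21 489 ± 75.4 against 491 ± 92.7 FPKM, Rplp2 456 ± 79.3 against 415 ± 22.0 FPKM, and Rps18 402 ± 81.0 against 393 ± 87.0 FPKM (SD, n = 3 each).

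**Figure D1:**
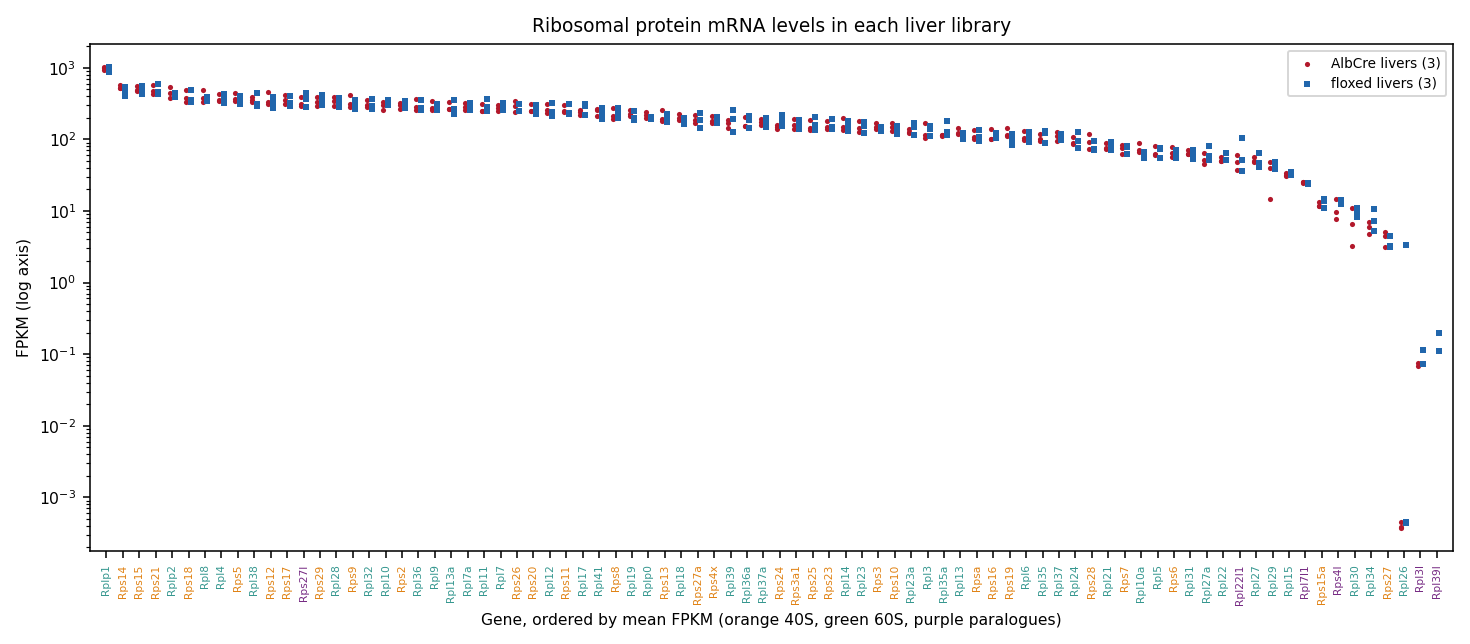
Level of the ribosomal protein genes named on the axis, in FPKM on a log axis, with genes ordered by mean level. Red circles are the 3 AlbCre livers, blue squares the 3 floxed livers, and values of 0 are not drawn. Rplp1 stands apart at the top, and Rps15a, Rpl30, Rpl34, Rps27 and Rpl26 have the lowest means of the subunit genes.

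The 5 subunit genes under 20 FPKM were Rps15a, Rpl30, Rpl34, Rps27 and Rpl26. The proteins of Rpl26, Rpl34 and Rpl30 sit in the large subunit, and that of Rps27 is a zinc-finger protein of the small subunit. Ribosomal protein genes are known for intronless copies scattered through the genome, and reads that match a gene and its copy can be assigned to either. For 83 of the 84 genes a coding sequence was available in GENCODE vM21 (GRCm38, the same assembly as mm10), and 77 of these had at least 1 annotated copy with at least 95% identity over at least 90% of the coding sequence. There were 563 such copies in all, up to 56 for a single gene (Rpl21), and 16 had a row of their own in the table. For 4 genes the copy stood above the gene itself, and these were 4 of the 5 lowest.

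The coding sequences of these 4 genes and of the copies beside them are shown because their near identity bears on where reads were counted. Each pair is given over the same 60 bases of the coding strand, 5′ to 3′, with positions counted from 1 at the A of the start codon, and capitals mark a base that differs.
Rpl26 (chr11:68901583-68906989, plus strand), coding bases 147 to 206: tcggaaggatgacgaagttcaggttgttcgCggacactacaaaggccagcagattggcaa
Gm15772 (chr5:3236431-3236868, plus strand): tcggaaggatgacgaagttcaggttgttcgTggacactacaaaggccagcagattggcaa
Rpl34 (chr3:130726831-130730398, minus strand), coding bases 102 to 161: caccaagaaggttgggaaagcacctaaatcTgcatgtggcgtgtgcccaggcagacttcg
Rpl34-ps1 (chr6:71124610-71124963, plus strand): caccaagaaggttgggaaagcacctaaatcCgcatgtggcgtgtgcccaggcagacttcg
Rpl30 (chr15:34440505-34443640, minus strand), coding bases 66 to 125: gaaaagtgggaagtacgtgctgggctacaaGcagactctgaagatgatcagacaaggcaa
Gm12191 (chr11:49678710-49679057, minus strand): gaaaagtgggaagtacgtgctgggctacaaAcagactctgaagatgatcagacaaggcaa
Rps27 (chr3:90212522-90213651, minus strand), coding bases 1 to 60: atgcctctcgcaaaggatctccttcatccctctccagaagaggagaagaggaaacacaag
Rps27rt (chr9:114982366-114982739, minus strand): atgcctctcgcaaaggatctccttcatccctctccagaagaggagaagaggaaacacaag

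Over the whole coding sequence, Rps27 and Rps27rt were identical across 252 bases. Rpl30 and Gm12191 differed at 1 of 345 bases (G96A), Rpl34 and Rpl34-ps1 at 2 of 351 bases (T132C and C318G), and Rpl26 and Gm15772 at 2 of 435 bases (C177T and T288C). Each gene has several exons, whereas each copy has 1. GENCODE classes Gm15772, Rpl34-ps1 and Gm12191 as processed pseudogenes and Rps27rt as protein coding.

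In the table, the copies carried nearly the whole signal of each pair. Rpl26 was at 0.000378, 0.000448 and 0.000390 FPKM in AlbCre livers and at 0.000450, 0.000437 and 3.35 FPKM in floxed livers. Gm15772 stood at 257, 291 and 234 FPKM in AlbCre livers and 237, 279 and 218 FPKM in floxed livers. Rpl26 was thus near 0 in 5 libraries and above 1 FPKM in floxed liver 3 alone, while its copy was at the level of a usual 60S gene in all 6.

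Rps27 stood at 4.50, 5.05 and 3.16 FPKM in AlbCre livers and 3.15, 3.22 and 4.45 FPKM in floxed livers. Rps27rt stood at 546, 814 and 613 FPKM in AlbCre livers and 666, 806 and 503 FPKM in floxed livers. The gene held 0.592% of the sum of the pair over the 6 libraries, and Rps27rt alone would rank above all ribosomal protein genes but Rplp1.

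Rpl34 was at 6.95, 5.91 and 4.80 FPKM in AlbCre livers and 5.19, 10.6 and 7.13 FPKM in floxed livers, against 361, 376 and 328 FPKM in AlbCre livers and 357, 428 and 307 FPKM in floxed livers for Rpl34-ps1. Rpl30 was at 10.8, 6.65 and 3.21 FPKM in AlbCre livers and 8.19, 11.1 and 9.28 FPKM in floxed livers, against 189, 245 and 172 FPKM in AlbCre livers and 188, 243 and 189 FPKM in floxed livers for Gm12191. The genes held 1.85% and 3.86% of their pairs. With the copies added, 1 of the 77 subunit genes remained under 20 FPKM, namely Rps15a at 11.8, 13.5 and 11.9 FPKM in AlbCre livers and 13.6, 14.6 and 10.9 FPKM in floxed livers. How the authors assigned reads that match several genes was not given in the sources used, so the split within each pair is uncertain, and so is any level of a gene with close copies.

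**Figure D2:**
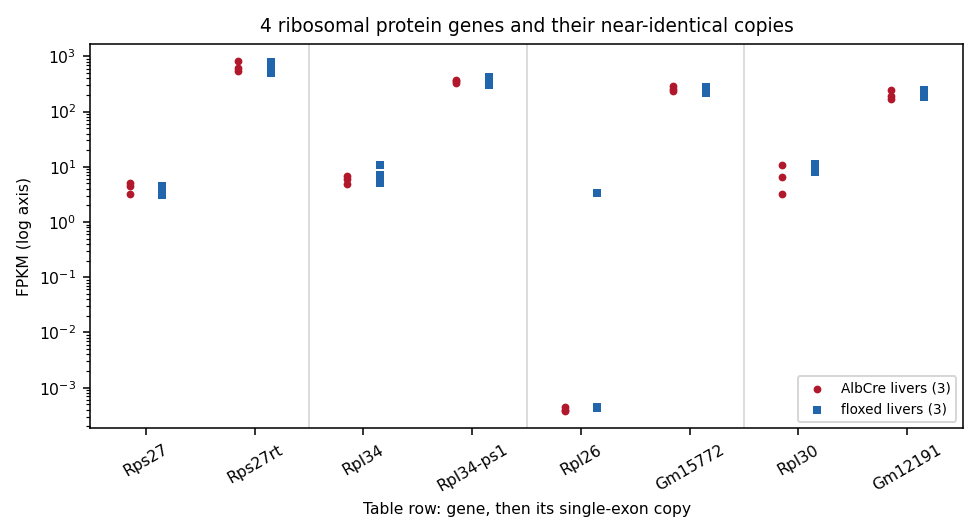
Level in FPKM (log axis) of Rps27, Rpl34, Rpl26 and Rpl30, each followed by its single-exon copy, in the 3 AlbCre livers (red circles) and the 3 floxed livers (blue squares). Each copy stands above 150 FPKM in every library, and each gene stands under 12 FPKM.

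The question of the genotype comparison was whether ribosomal protein mRNAs differed between AlbCre and floxed livers. Of the 84 genes, 80 reached at least 1 FPKM in at least 3 libraries and were tested with limma among 10963 genes. The other 4 were Rpl26, Rpl3l, Rpl10l and Rpl39l. After Benjamini-Hochberg adjustment over all genes, 0 of the 80 passed at 0.05, where 0.0274% of all genes tested passed (0.00912% higher and 0.0182% lower in AlbCre livers). At an unadjusted p under 0.05 limma also gave 0 of 80, against 9.93% of all genes tested. The adjusted p of the 80 ran from 0.566 to 0.999.

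The fitted differences were small and lay on both sides of 0. Of the 80 genes 50 had a positive and 30 a negative log2 change (AlbCre minus floxed), and the median log2 change was 0.03, against 0.04 over all genes tested, where 6150 were positive and 4813 negative. The log2 change ran from -0.53 (Rpl30) to 0.32 (Rpl10a), and lay within 0.25 of 0 for 70 of the 80, against 67.1% of all genes tested. The median SE was 0.18 for these genes and 0.17 for all genes tested. The 95% interval lay within -1 to 1 on the log2 scale, a 2-fold change either way, for 77 of the 80, and within a 1.5-fold change either way for 58. The 3 with wider intervals were Rpl22l1, Rpl29 and Rpl30. The 40S genes had a median log2 change of 0.04, with 23 positive and 8 negative, and the 45 tested 60S genes one of 0.03, with 26 positive and 19 negative. The median over the 80 genes turned negative without AlbCre liver 2 (-0.09) or without floxed liver 3 (-0.07).

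**Figure D3:**
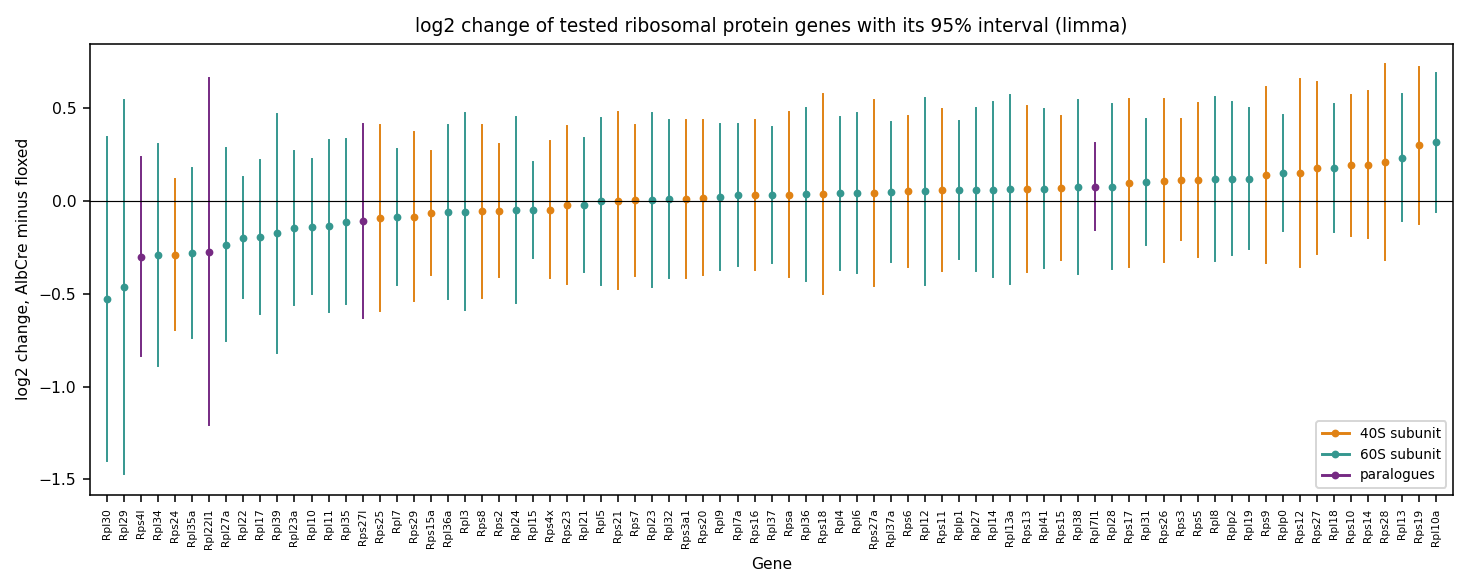
Fitted log2 change (AlbCre minus floxed, on the log2(FPKM + 1) scale) of 79 of the 80 tested ribosomal protein genes, ordered by value, with the 95% interval from limma as bars. Orange marks 40S genes, green 60S genes and purple paralogues. Each interval includes 0.

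Rpl10a, a protein of the L1 stalk where spent tRNA leaves the ribosome, had the largest positive difference. It stood at 67.0, 90.2 and 70.9 FPKM in AlbCre livers and at 59.8, 67.0 and 54.9 FPKM in floxed livers. The groups overlapped by a narrow margin, with AlbCre liver 1 at the level of floxed liver 2 (log2 change 0.32, SE 0.16, 95% interval -0.06 to 0.69, limma adjusted p = 0.566). Its unadjusted p was 0.0867, and 0.0478 with the replicate number as a block, where it was the 1 gene of the 80 under 0.05, against 16.2% of all genes tested (10.1% higher and 6.07% lower). Rpl10a lies on chromosome 17 from 28328471 to 28331033 on the plus strand.

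Rps19, needed to mature the small subunit and the gene most often mutated in human Diamond-Blackfan anaemia, was at 112, 143 and 113 FPKM in AlbCre livers and 98.4, 117 and 83.4 FPKM in floxed livers (log2 change 0.30, SE 0.18). Rpl13 was at 117, 143 and 122 FPKM in AlbCre livers and 103, 121 and 100.2 FPKM in floxed livers (0.23, SE 0.14). The groups overlapped for both. Rps28 (0.21, SE 0.22) and Rps14 (0.20, SE 0.17) were also among the 6 largest positive differences.

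On the negative side, Rpl30 and Rpl34, whose copies are described above, had log2 changes of -0.53 (SE 0.36) and -0.29 (SE 0.25). For Rpl30 and Gm12191 summed, the log2 change was -0.06 (SE 0.19), and for Rpl34 and Rpl34-ps1 summed it was -0.03 (SE 0.17). Rpl29, a small basic protein at the surface of the large subunit, was at 48.3, 14.6 and 39.5 FPKM in AlbCre livers and 38.6, 48.7 and 40.6 FPKM in floxed livers (-0.46, SE 0.42). Its difference lay in AlbCre liver 2 alone, and without that library the log2 change was 0.04. Rpl29 has 27 annotated copies.

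Rps24, another gene of human Diamond-Blackfan anaemia, stood at 146, 160 and 139 FPKM in AlbCre livers and 179, 220 and 152 FPKM in floxed livers (-0.29, SE 0.17). Rpl35a was at 116, 116 and 110 FPKM in AlbCre livers and 126, 182 and 115 FPKM in floxed livers (-0.28, SE 0.19). The ranges overlapped for both, in each case through floxed liver 3.

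The groups did not overlap for 1 of the 80 genes, against 16.3% of all genes tested (10.7% higher and 5.56% lower). This was Rpl7l1, a relative of Rpl7 that acts in assembly of the large subunit, at 25.6, 25.4 and 24.7 FPKM in AlbCre livers and 24.6, 23.5 and 23.5 FPKM in floxed livers (log2 change 0.08, SE 0.10, limma adjusted p = 0.840). Under median-ratio scaling its groups overlapped, and with values rescaled to TPM (the same column total in every library) 5 genes were higher without overlap, or 6.25%, against 10.6% of all genes tested. The count rested on single libraries, and with 2 libraries against 3 more of all genes separate too. Without floxed liver 2 it was 16 higher, or 20% of the 80, against 15.4% of all genes, and 0 lower, against 8.79%. Without floxed liver 3 it was 8 lower, or 10%, against 11.5%, and 1 higher, against 15.3%. It was 5 higher and 2 lower without AlbCre liver 1 (18.5% and 20.2% of all genes), and 1 higher and 3 lower without AlbCre liver 2 (15% and 7.07%). There were 3 higher and 0 lower without AlbCre liver 3 (14.5% and 7.41%), and 1 each way without floxed liver 1 (17.4% and 8.29%).

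The summed level of the 84 genes was 15195, 18916 and 15719 FPKM in AlbCre livers and 15752, 18959 and 14190 FPKM in floxed livers, or 2.92%, 3.52% and 2.90% of the table total in AlbCre livers and 3.03%, 3.28% and 2.72% in floxed livers. The means were 16610 ± 2014 FPKM in AlbCre livers and 16300 ± 2431 FPKM in floxed livers (SD, n = 3 each), so the difference of 309 FPKM was smaller than the spread within either group. The ratio of summed 40S to summed 60S levels was 0.767, 0.820 and 0.799 in AlbCre livers and 0.772, 0.786 and 0.773 in floxed livers. AlbCre liver 1 lay below every floxed liver and AlbCre livers 2 and 3 above, and the means were 0.795 ± 0.0267 and 0.777 ± 0.00779.

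Ribosomal protein mRNAs moved together from library to library, and library 2 of each group stood highest. Within the AlbCre livers 72 of the 80 genes were highest in liver 2, against 23.9% of all genes tested, and within the floxed livers 75 of 80 were highest in liver 2, against 30.1% of all genes tested. The median of AlbCre liver 2 minus the mean of the other AlbCre livers was 0.31 on the log2 scale, where all genes tested had -0.10. In floxed liver 2 the same median was 0.32, where all genes tested had -0.05. Floxed liver 3 was lowest of its group for 70 of the 80 genes, against 35.4% of all genes tested, and AlbCre liver 1 for 47, against 24.8%. The genes that were not highest in liver 2 were Rpl22l1, Rpl29, Rpl30, Rpl34, Rpl39, Rpl7l1, Rps27l and Rps4l in AlbCre livers and Rpl15, Rpl22, Rpl7l1, Rps27 and Rps4l in floxed livers. These lists hold all 4 of the tested paralogues.

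**Figure D4:**
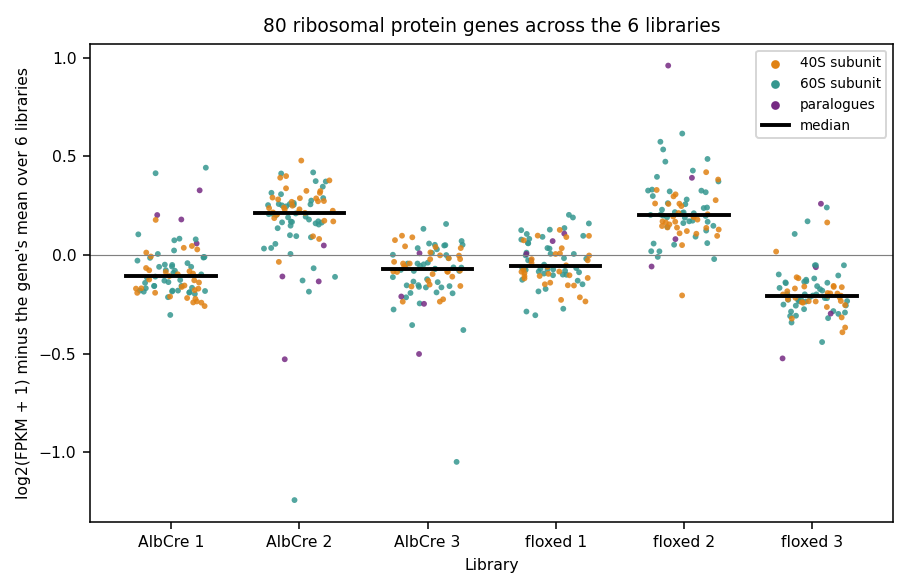
Each point is 1 of the 80 tested ribosomal protein genes, plotted as log2(FPKM + 1) in a library minus the mean of that gene over the 6 libraries, with a black bar at the median. AlbCre 2 and floxed 2 lie above 0 for most genes, and floxed 3 lies below.

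Markers of the cells in the tissue differed between the same libraries. Summed hepatocyte markers were 23788, 34949 and 28457 FPKM in AlbCre livers and 35955, 45336 and 28917 FPKM in floxed livers, highest in liver 2 of each group. Of the 13 tested hepatocyte markers 3 had a positive log2 change, the median was -0.40, and 4 had an unadjusted p under 0.05. The 13 macrophage markers, none of them at 0 throughout, summed to 1115, 329 and 534 FPKM in AlbCre livers and 730, 165 and 655 FPKM in floxed livers, lowest in liver 2 of each group. T and NK cell markers (11 of 14 in the table) summed to 15, 4.00 and 10.3 FPKM in AlbCre livers and 8.47, 2.25 and 8.37 FPKM in floxed livers. Neutrophil markers (8 of 9) summed to 308, 8.75 and 12.5 FPKM in AlbCre livers and 30.0, 5.26 and 9.73 FPKM in floxed livers, so that AlbCre liver 1 stood apart. It also stood apart for cholangiocyte markers, which summed to 149, 23.3 and 26.2 FPKM in AlbCre livers and 61.5, 48.6 and 37.2 FPKM in floxed livers, and for markers of proliferating cells, at 53.3, 19.0 and 22.3 FPKM in AlbCre livers and 26.9, 20.5 and 25.2 FPKM in floxed livers. Erythroid markers summed to 184, 91.7 and 150.4 FPKM in AlbCre livers and 30.4, 115 and 64.2 FPKM in floxed livers. In bulk tissue fewer cells of a type and less RNA per cell cannot be told apart, and the part of these markers in the level of ribosomal protein mRNAs was not tested.

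Taken by same-numbered libraries, the differences did not share a direction. In pair 1, 28 genes were higher and 52 lower in the AlbCre liver, with a median log2 difference of -0.07. In pair 2, 43 were higher and 37 lower (0.01), and in pair 3, 63 were higher and 17 lower (0.14). Over all genes tested the medians were 0.08, 0.02 and 0.00049. A gene higher or lower in all 3 pairs was found 22 times among the 80, or 27.5%, against 41.9% of all genes tested (25.1% higher and 16.8% lower). The 14 higher in all pairs included Rpl10a, Rpl13, Rps14 and Rps19, and the 8 lower in all pairs were Rpl10, Rpl11, Rpl17, Rpl22, Rpl27a, Rpl35a, Rps2 and Rps24. Without both libraries numbered 2, limma still called 0 of the 80 after adjustment and at an unadjusted p under 0.05, and 50 were positive.

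Rplp0, Rpsa and Rps6 showed no difference past the test. Rplp0, the base of the stalk and a common reference gene in liver work, stood at 220, 242 and 199.7 FPKM in AlbCre livers and 199, 206 and 189 FPKM in floxed livers (log2 change 0.15, SE 0.13, 95% interval -0.16 to 0.47). Rpsa, a 40S protein also known as the laminin receptor, was at 102, 136 and 106 FPKM in AlbCre livers and 107, 135 and 95.5 FPKM in floxed livers (0.03, SE 0.18). Rps6, the substrate of the S6 kinases, was at 56.2, 78.8 and 63.6 FPKM in AlbCre livers and 63.2, 71.8 and 55.7 FPKM in floxed livers (0.05, SE 0.17). The groups overlapped for all of them, for Rplp0 through AlbCre liver 3 and floxed liver 2.

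Rpl5 and Rpl11 can leave the ribosome when its assembly fails and bind MDM2, which frees p53. Rpl5 stood at 63.4, 80.7 and 60.2 FPKM in AlbCre livers and 74.3, 76.3 and 54.3 FPKM in floxed livers (log2 change -0.0006, SE 0.19, 95% interval -0.45 to 0.45). Rpl11 stood at 250.2, 313 and 247 FPKM in AlbCre livers and 284, 365 and 248 FPKM in floxed livers (-0.14, SE 0.19). Both overlapped between the groups. Cdkn1a, the p53 target that encodes p21, was at 24.4, 24.1 and 14.3 FPKM in AlbCre livers and 3.81, 1.17 and 1.31 FPKM in floxed livers, without overlap (2.89, SE 0.36, limma adjusted p = 0.166). Cdkn1a passed without AlbCre liver 1 (limma adjusted p = 0.0427). The other p53-axis genes of its list had log2 changes of 0.29 (Mdm2, SE 0.16), 0.11 (Trp53, SE 0.11) and -0.09 (Mdm4, SE 0.15). None of them had an unadjusted p under 0.05 with limma.

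Of the 7 paralogues 4 reached the level for testing, and the other 3 stood under 1 FPKM or were listed at 0. Rps27l, which differs from Rps27 by a few residues and is known as a p53-inducible gene, was abundant, at 388, 312 and 296 FPKM in AlbCre livers and 360, 450 and 279 FPKM in floxed livers. Its groups overlapped (log2 change -0.11, SE 0.22, limma adjusted p = 0.905), and it had 0 annotated copies. Rpl22l1, a relative of Rpl22 that can replace it, stood at 60.5, 48.6 and 36.8 FPKM in AlbCre livers and 51.5, 103 and 36.2 FPKM in floxed livers (-0.27, SE 0.39). Its parent Rpl22 was at 49.8, 57.3 and 49.9 FPKM in AlbCre livers and 64.6, 64.0 and 52.2 FPKM in floxed livers (-0.20, SE 0.14). Rpl22l1 was thus at the level of Rpl22, and floxed liver 2 alone raised its floxed mean: without that library the log2 change was 0.14.

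Rps4l, annotated in GENCODE as a transcribed processed pseudogene, was at 14.8, 7.74 and 9.62 FPKM in AlbCre livers and 12.6, 12.3 and 14.1 FPKM in floxed livers (-0.30, SE 0.22), whereas its X-linked parent Rps4x averaged 187 ± 23.2 FPKM in AlbCre livers and 193 ± 20.4 FPKM in floxed livers (SD, n = 3 each). Rpl7, the parent of Rpl7l1, averaged 272 ± 26.1 FPKM in AlbCre livers and 289 ± 33.8 FPKM in floxed livers. Rpl3l, known from striated muscle, was at 0.0678, 0 and 0.0745 FPKM in AlbCre livers and 0.0722, 0 and 0.116 FPKM in floxed livers, while Rpl3 averaged 129 ± 33.6 and 133 ± 21.4 FPKM. Rpl39l and Rpl10l, both known from male germ cells, had low values or were listed at 0. Rpl39l was listed at 0 in the 3 AlbCre livers and at 0.200, 0 and 0.112 FPKM in floxed livers, and Rpl10l was listed at 0 in all 6. Their parents Rpl39 (165 ± 20.5 in AlbCre livers and 193 ± 66.1 FPKM in floxed livers) and Rpl10 (295 ± 34.1 and 324 ± 28.5 FPKM) stood above 100 FPKM.

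The 6 start windows shown next are those in which a pyrimidine word begins at the annotated start base, as in the terminal oligopyrimidine tract that these mRNAs are known for. The words searched were CTTTC, with CTTTT, then CTTCC, and also CCTTT, which can overlap each other, on both strands of the window from 10 bases before to 20 bases after each RefSeq start (GRCm38.p6). A window was available for 63 of the 84 genes. Capitals mark the words, and the start base is the base after the first 10.
Rpl15 (chr14:18270967-18270996, minus strand): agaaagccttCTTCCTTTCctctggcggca
Rpl38 (chr11:114668570-114668599, plus strand): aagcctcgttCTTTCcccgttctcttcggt
Rplp2 (chr7:141447641-141447670, plus strand): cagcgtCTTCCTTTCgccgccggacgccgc
Rps10 (chr17:27635225-27635254, minus strand): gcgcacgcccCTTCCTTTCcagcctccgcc
Rps15a (chr7:118116128-118116157, minus strand): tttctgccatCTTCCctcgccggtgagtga
Rps27 (chr3:90213629-90213658, minus strand): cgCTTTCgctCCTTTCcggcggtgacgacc

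Any of the 4 words on the transcribed strand was found for 26 of 63 ribosomal protein genes, or 41.3%, against 15.7% of all 27025 genes with a window and 17.5% of those tested. On the other strand the share was 19.0%, against 16.6% of all genes. CTTTC alone was found for 23.8%, against 4.43% of all genes. RefSeq starts need not be the start used in liver. The 25 tested genes with a word had a median log2 change of 0.04 and a median level of 166 FPKM, and the 34 without had 0.04 and 159 FPKM.

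Genes with many annotated copies had lower fitted differences. Over the 76 tested subunit genes, Spearman rho between the number of copies and the log2 change was -0.47, where it was 0.24 between mean level and log2 change and 0.08 between coding length and log2 change. The 17 genes with 10 or more copies had a median log2 change of -0.05, with 11 negative, and the 59 with fewer had 0.05, with 16 negative. These correlations run across genes that share the same 6 libraries and are not independent, and the part of copies in the differences was not tested.

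Some ribosomal proteins have symbols outside the rule. Fau, a ubiquitin-like fusion that yields a 40S protein, was at 211, 288 and 238 FPKM in AlbCre livers and 195, 240 and 195 FPKM in floxed livers (log2 change 0.22, SE 0.17). Rpl36al stood at 89.5, 79.4 and 71.3 FPKM in AlbCre livers and 99.3, 119 and 83.8 FPKM in floxed livers (-0.32, SE 0.17). Neither gene had an unadjusted p under 0.05.

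Genes that build the ribosome or work with it were described by lists, and 0 genes of any list passed limma's test after adjustment. With sample quality weights 4 of their genes named by rule passed, namely Cdkn1a, Polr2e, Polr3g and Rps6kb2. The share of all genes passing with these weights is not given here, so this count has no background. Of 52 tested assembly factors 42 were positive, with a median log2 change of 0.15 against 0.04 over all genes tested. At an unadjusted p under 0.05 limma gave 6 higher and 0 lower, against 6.34% and 3.59% of all genes tested. With the replicate block it gave 8 higher and 0 lower, against 10.1% and 6.07%. Of the 52, 14 were higher without overlap, against 10.7%. Imp4, of the U3 particle that cuts the 18S precursor, was at 14.6, 17.6 and 15.4 FPKM in AlbCre livers and 12.8, 11.2 and 12.2 FPKM in floxed livers (0.36, SE 0.12, limma adjusted p = 0.435). Tsr1, a late 40S assembly factor, was at 6.84, 11.6 and 8.09 FPKM in AlbCre livers and 6.00, 4.81 and 5.88 FPKM in floxed livers (0.56, SE 0.20, limma adjusted p = 0.456). Both lacked overlap, whereas the abundant Npm1, a nucleolar chaperone, was at 75.3, 105 and 88.0 FPKM in AlbCre livers and 98.8, 91.1 and 80.5 FPKM in floxed livers (-0.02, SE 0.16). Nop10, of the box H/ACA particles, had a log2 change of -0.0033 (SE 0.17).

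Of 35 tested initiation factors 28 were positive (median log2 change 0.13, and 0.0484 without AlbCre liver 2). At an unadjusted p under 0.05 there were 3 higher and 0 lower, against 6.34% and 3.59% of all genes tested, and 4 higher with the block, against 10.1%. Eif6, which keeps the 60S subunit from joining too early, stood at 53.5, 63.3 and 48.4 FPKM in AlbCre livers and 34.1, 35.5 and 37.7 FPKM in floxed livers, without overlap (0.60, SE 0.13, limma adjusted p = 0.317). Eif4g3, a scaffold of the cap complex, was at 14.7, 13.4 and 12.2 FPKM in AlbCre livers and 10.1, 9.81 and 10.3 FPKM in floxed livers, also without overlap (0.38, SE 0.11, limma adjusted p = 0.390). Of the 35, 8 were higher and 1 lower without overlap, against 10.7% and 5.56% of all genes tested. The abundant Eif1 (0.38, SE 0.23) and Pabpc1, the poly(A) binding protein (0.30, SE 0.15), had positive differences as well.

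Of 10 elongation genes 0 had an unadjusted p under 0.05 with limma, and 1 was lower with the block, against 6.07% of all genes tested. This was Eef2k, the kinase that inhibits elongation factor 2, at 2.81, 1.33 and 1.501 FPKM in AlbCre livers and 4.19, 2.68 and 2.71 FPKM in floxed livers (-0.56, SE 0.24, limma adjusted p = 0.514). Eef1a1, the most abundant, was at 1554, 1813 and 1563 FPKM in AlbCre livers and 1698, 1584 and 1559 FPKM in floxed livers (0.02, SE 0.17). Hbs1l, a ribosome rescue factor, was at 20.6, 23.1 and 24.7 FPKM in AlbCre livers and 26.8, 26.6 and 27.0 FPKM in floxed livers (-0.23, SE 0.11). It was the 1 gene of the 10 without overlap, against 5.56% lower of all genes tested. Tpt1, itself encoded by an oligopyrimidine mRNA, had a log2 change of -0.07 (SE 0.18). Among 31 tested genes of RNA polymerases I and III and rRNA transcription, 19 were positive, with 2 higher and 2 lower at an unadjusted p under 0.05, against 6.34% and 3.59% of all genes tested. With the replicate block there were 4 higher and 2 lower, against 10.1% and 6.07%. Polr2e, a subunit shared by the 3 nuclear polymerases, averaged 33.6 ± 0.468 FPKM in AlbCre livers and 24.6 ± 1.71 FPKM in floxed livers, and Polr3g averaged 2.81 ± 0.953 FPKM against 5.04 ± 0.581 FPKM, both without overlap. Their limma log2 changes were 0.43 (SE 0.11) and -0.69 (SE 0.20). Of the 31, 6 were higher and 2 lower without overlap, against 10.7% and 5.56% of all genes tested. Polr2f (0.21, SE 0.12) and Polr1d (0.11, SE 0.12), further shared subunits, did not have an unadjusted p under 0.05.

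Among 16 regulators of ribosomal protein mRNAs, 2 were higher and 1 lower at an unadjusted p under 0.05, against 6.34% and 3.59% of all genes tested (median log2 change 0.01). With the replicate block there were 4 higher and 1 lower, against 10.1% and 6.07%. Rps6kb2, the S6 kinase 2 gene, stood at 9.60, 11.7 and 11.6 FPKM in AlbCre livers and 7.22, 8.77 and 7.71 FPKM in floxed livers (0.43, SE 0.13, limma adjusted p = 0.414). Tial1, whose protein binds oligopyrimidine mRNAs, stood at 10.6, 9.64 and 9.79 FPKM in AlbCre livers and 14.2, 14.4 and 12.1 FPKM in floxed livers (-0.40, SE 0.12, limma adjusted p = 0.386). Neither overlapped. Cnbp (-0.29, SE 0.15) and Ybx1 (-0.09, SE 0.12), both RNA-binding proteins, did not have an unadjusted p under 0.05. Of 9 snoRNA host genes, several of which carry an oligopyrimidine start, 1 was higher at an unadjusted p under 0.05 (Snhg12, 0.49, SE 0.14), against 6.34% of all genes tested. The list's median log2 change was 0.08, and it was -0.15 without AlbCre liver 2 and 0.28 without floxed liver 2. Gas5 was at 11.9, 24.1 and 19.0 FPKM in AlbCre livers and 14.9, 18.7 and 13.8 FPKM in floxed livers (0.16, SE 0.26). Snhg7 (0.18, SE 0.23) and Snhg6 (0.0072, SE 0.25) overlapped as well. Among 17 chaperone and p53-axis genes Cdkn1a was the 1 under that p, against 6.34% of all genes tested that were higher. Nap1l1 (0.27, SE 0.13), Naca (-0.04, SE 0.16) and Btf3 (0.03, SE 0.14) were not. Of the 17, 4 were higher without overlap, against 10.7% of all genes tested.

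**Figure D5:**
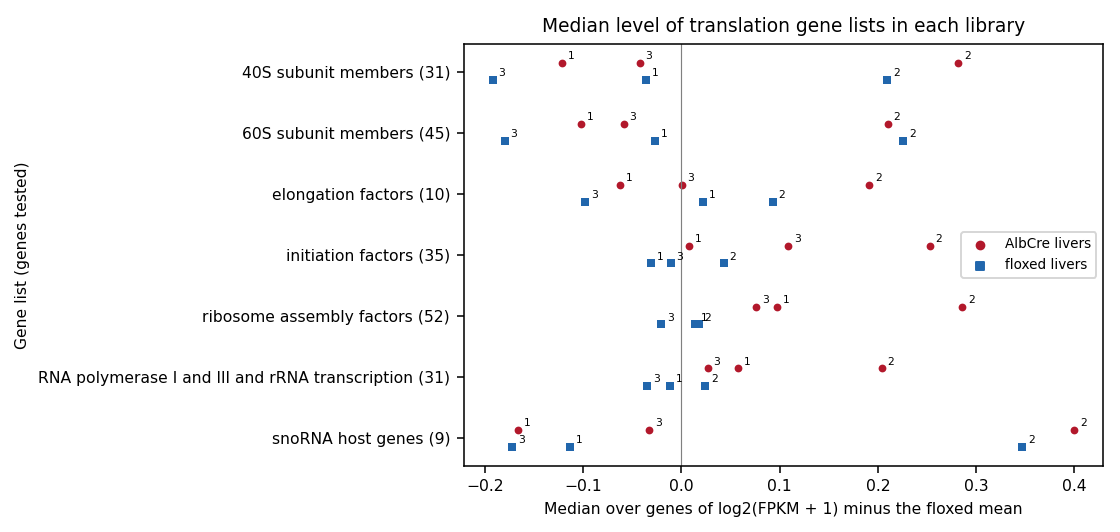
Median over the tested genes of each list of log2(FPKM + 1) minus the floxed mean, 1 point per library with its replicate number, red circles for AlbCre livers and blue squares for floxed livers. Library 2 of each group is highest for every list drawn. The 3 AlbCre livers lie above the 3 floxed livers for ribosome assembly factors. For RNA polymerase I and III genes they do so narrowly (AlbCre 3 at 0.0269, floxed 2 at 0.0244). Of the lists not drawn, regulators of ribosomal protein mRNAs are highest in library 1 of each group, and paralogues in AlbCre 1 and floxed 2.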

How the data were processed

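The authors deposited 1 table of FPKM values with 6 columns, 1 per library, and the column names match the sample titles. No label names the unit, which was inferred from the values: they are not whole, and their columns sum to different totals. Per the labels' protocols, frozen liver RNA was poly(A) selected, made into strand-preserving libraries and read from a single end. The submitters' processing notes name mm10, STAR and DESeq2, with no role or version. No source used here states the annotation, how reads matching several genes were treated, or whether strand was used.

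Testing took the genes that reached 1 FPKM in 3 or more libraries, and log2(FPKM + 1) was compared with limma 3.58.1 (R 4.3.3, intensity trend), with Benjamini-Hochberg adjustment over all 10963 genes at 0.05. A log2 change is AlbCre minus floxed and understates the change of low genes. Errors are SD over n = 3 unless SE is named. The fit was tested on simulated data. Copies were found with BLAST 2.17.0 on GENCODE vM21 transcripts, and start windows came from RefSeq.

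Same-numbered libraries deviated together from their group means (r = 0.477, 0.279 and 0.283 over 10963 genes), and r ran from -0.384 to 0.12 for libraries of different number. The replicate block was therefore run as an alternative. No label states a pairing, so it rests on these same data, and the main test was unpaired. The members and lists were chosen with earlier results of these data known. Named genes were those with the 6 largest differences each way, the 6 most abundant, the stalk genes and Rpsa, and the paralogues with their parents. Rpl5, Rpl11 and Rps6 were also named, and per list the 2 of smallest p and the 2 most abundant. Rpl26, Rps15a, Rpl21, the copies, Myc, Mdm2, Mdm4, Trp53, and the genes listed by library or pair were named after their values were seen. Of the genes that rule names, 2 are not reported here. Alternatives were other scalings, filters and pseudocounts, quality weights, the block and leaving out libraries.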

Additional observations from a re-analysis of the deposited data

How the results depend on the processing

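The count of ribosomal protein genes past the adjusted threshold was 0 under every alternative run, including the replicate block, each library left out, and the 2 alternatives chosen after seeing the data (both libraries numbered 2 left out, copies added to their gene). At an unadjusted p under 0.05 the main count was 0 higher and 0 lower. It was 2 higher and 3 lower with sample quality weights, and 1 higher with the replicate block, against 10.1% of all genes tested with the block. With a library left out it ran from 0 to 1 higher and from 0 to 2 lower. The share of all genes tested is not given for the weights or with a library left out, so those counts have no background. The genes without overlap numbered 1 higher and 0 lower, against 10.7% and 5.56% of all genes tested. There were 5 higher when rescaled to TPM (10.6% of all genes) and 0 higher with median-ratio size factors (7.86%). With a library left out they ran from 1 to 16 higher and from 0 to 8 lower, with the shares of all genes given above. Without both libraries numbered 2 there were 16 higher, or 20% of the 80, against 20.6% of all genes. In that setting 3 were lower, or 3.75%, against 10.7%. Unadjusted counts with the block are given beside the lists where they differ. Of the genes named by rule from the other lists, limma's adjusted p fell under 0.05 with quality weights for Cdkn1a (0.0189), Polr2e (0.0365), Polr3g (0.0291) and Rps6kb2 (0.0356). It also did so without AlbCre liver 1 for Cdkn1a (0.0427), and under no other alternative run. These genes were named for the smallest p of their lists, and the share of all genes passing in these fits is not given here. The summed level differed by 1.90% (AlbCre over floxed), and by -5.18% to 10.9% with a library left out. Among list medians, the paralogues (-0.19) ran from -0.33 to 0.0626 with a library left out and stood at 0.0800 without both libraries numbered 2, and the chaperone and p53-axis list (0.11) ran from 0.0260 to 0.16. With a library left out the snoRNA hosts (0.08) ran from -0.15 to 0.28, initiation factors (0.13) from 0.0484 to 0.20, elongation genes (0.04) from -0.0154 to 0.10, the regulators (0.01) from -0.0361 to 0.0918, the 40S genes (0.04) from -0.0881 to 0.17 and the 60S genes (0.03) from -0.0866 to 0.13. The assembly, polymerase and outside-rule lists stayed positive.

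Some log2 changes of named genes, none of them called, changed sign. Without both libraries numbered 2 they were 0.14 for Rpl29, 0.13 for Rpl22l1, 0.0597 for Rpl39 and 0.10 for Rps27l. Median-ratio scaling gave -0.0240 for Rps21, quality weights gave -0.14 for Rps27, and rescaling to TPM gave 0.0152 for Rpl5. With a library left out the ranges were -0.79 to 0.0417 for Rpl29, -0.0037 to 0.17 for Rps15, -0.12 to 0.15 for Rps21, -0.0063 to 0.24 for Rplp2, -0.12 to 0.21 for Rps18, -0.0945 to 0.17 for Rpsa, -0.26 to 0.0808 for Rpl3, -0.60 to 0.14 for Rpl22l1, -0.44 to 0.0696 for Rpl39, -0.15 to 0.0200 for Rps4x, -0.29 to 0.0585 for Rps27l, -0.16 to 0.0862 for Rpl5, -0.26 to 0.0165 for Rpl11 and -0.0783 to 0.16 for Rps6. The cause was not tested. With 3 livers a group, differences under about the width of the intervals given could not be seen. Larger ones could also miss the adjusted threshold, as Cdkn1a did (log2 change 2.89, limma adjusted p = 0.166). Depth is unknown.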
